A study of Mus musculus with 8 samples.

Results

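The colon library of mice given a low dose of bovine colostrum extracellular vesicles (EVs) was compared with the colon library of mice with non-alcoholic steatohepatitis (NASH), gene by gene. A gene entered the comparison when it reached 5 FPKM (a level per kilobase of transcript, scaled to the fragments mapped in a library) in at least 1 of the 2 libraries, which held for 9098 of the 45777 genes listed. The value compared is the log2 ratio of FPKM + 1, EVs low dose over NASH, and every log2 ratio below is that one unless another pair is named. Each side is 1 library, so no error, test or p-value can be given, and every difference below describes these 2 libraries and not the groups. Genes of the male accessory glands and of fat were kept apart as possible neighbouring tissue.

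The series holds RNA-seq of colon and liver in 8 libraries, 1 for each tissue and group. Its groups are EVs low dose, EVs high dose, NASH and control, and its question is what the vesicles, the membrane-bound particles of a cow's early milk, do to RNA in a mouse model of NASH. NASH is fatty liver with inflammation. The labels of the EV groups do not mention NASH, which the design text gives for the animals studied. Total RNA was sequenced after a library kit that keeps the strand. The labels name no strain, genotype, sex, age, diet, dose amount, route or duration for any group, and do not say whether RNA of several animals was pooled or which segment of colon was taken. The EVs high dose and control colon libraries are shown beside the 2 compared libraries.

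The colon epithelium renews from crypts, whose lower part holds stem cells and secretory cells and whose upper part holds absorptive colonocytes. Goblet cells secrete the gel-forming mucin and the proteins that build and cut the mucus, and cells of the deep crypt release lectins, ribonucleases and other proteins that bind or kill bacteria. Plasma cells below the epithelium make dimeric IgA, which the epithelium carries into the lumen.

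The genes of 4 crypt defence proteins that stood higher in the EVs low dose library, and of 2 inducible lectins that stood lower, are shown by their promoters, since the comparison turns on them. Each sequence runs from 250 bases before to 50 bases after the start position that the RefSeq promoter table takes for the gene, on GRCm38.p6 (mm10). For Itln1 and Reg4 that position is not the outer end of the gene's annotated span. Entries were found for 6 of the 8 genes looked up, and Clca1 and Retnlb had none. Capitals mark matches, on either strand, to 3 short motifs. These are TATAAA, the letters of the so-called TATA box, TTTATG, the core of caudal-type homeobox motifs, and TGTTTAC, the core of forkhead motifs. Of 32851 promoters of the same length, 13.6% held the TATA box letters, 11.9% the caudal-type letters and 3.65% the forkhead letters.
Mptx1 (chr1:174330268-174330567, plus strand): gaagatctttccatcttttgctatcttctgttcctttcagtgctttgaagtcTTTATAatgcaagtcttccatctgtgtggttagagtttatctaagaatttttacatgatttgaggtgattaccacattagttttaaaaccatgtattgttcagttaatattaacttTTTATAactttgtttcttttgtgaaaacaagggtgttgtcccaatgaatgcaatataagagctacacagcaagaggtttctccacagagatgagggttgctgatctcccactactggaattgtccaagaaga
Ang4 (chr14:51773541-51773840, minus strand): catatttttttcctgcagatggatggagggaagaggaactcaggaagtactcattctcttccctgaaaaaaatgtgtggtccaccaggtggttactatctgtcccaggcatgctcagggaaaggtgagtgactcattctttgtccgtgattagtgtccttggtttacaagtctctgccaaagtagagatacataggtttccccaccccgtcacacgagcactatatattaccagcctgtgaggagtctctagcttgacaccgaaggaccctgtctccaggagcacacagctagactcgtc
Itln1 (chr1:171535245-171535544, minus strand): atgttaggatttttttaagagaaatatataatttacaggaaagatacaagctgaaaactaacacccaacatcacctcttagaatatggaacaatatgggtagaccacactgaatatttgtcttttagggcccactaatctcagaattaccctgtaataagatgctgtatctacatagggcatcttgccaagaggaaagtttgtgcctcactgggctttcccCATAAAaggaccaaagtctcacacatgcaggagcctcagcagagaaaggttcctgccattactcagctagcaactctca
Reg4 (chr3:98221906-98222205, plus strand): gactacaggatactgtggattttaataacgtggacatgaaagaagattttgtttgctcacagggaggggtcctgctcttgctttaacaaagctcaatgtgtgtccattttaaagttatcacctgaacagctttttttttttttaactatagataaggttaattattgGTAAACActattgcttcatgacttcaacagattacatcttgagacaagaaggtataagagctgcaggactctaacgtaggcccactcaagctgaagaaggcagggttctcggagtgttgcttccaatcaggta
Reg3b (chr6:78370635-78370934, plus strand): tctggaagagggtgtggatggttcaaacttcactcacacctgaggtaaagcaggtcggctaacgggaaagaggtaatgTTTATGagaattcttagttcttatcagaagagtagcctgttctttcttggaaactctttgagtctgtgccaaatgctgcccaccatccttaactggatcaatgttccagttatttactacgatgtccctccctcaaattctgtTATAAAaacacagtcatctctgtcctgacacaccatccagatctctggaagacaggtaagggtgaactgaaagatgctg
Reg3g (chr6:78468825-78469124, minus strand): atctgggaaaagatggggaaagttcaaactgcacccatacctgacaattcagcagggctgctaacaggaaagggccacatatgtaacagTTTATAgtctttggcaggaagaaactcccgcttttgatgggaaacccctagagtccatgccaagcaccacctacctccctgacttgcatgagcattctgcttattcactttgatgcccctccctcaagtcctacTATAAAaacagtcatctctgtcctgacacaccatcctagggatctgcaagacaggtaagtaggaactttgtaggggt

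No motif was found in all 6 promoters. Mptx1 had 2 TATA box matches, Reg3g had 2 and Reg3b had 1, while Ang4, Itln1 and Reg4 had 0. In Reg3b and Reg3g the match nearest that start position begins at base 222 and base 224 of the 300 shown, and in Mptx1 the 2 matches begin at bases 53 and 169. Both Mptx1 matches, and the Reg3g match at base 90, read on the strand opposite to the one shown. Reg3b also holds 1 caudal-type match, Itln1 1 caudal-type match and Reg4 1 forkhead match, and none of the matches overlaps another. A match is a run of letters and not a known site.

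The 2 libraries compared differed in ways that run through the comparison. Genes of the seminal vesicle and prostate accounted for 0.162% of FPKM over protein-coding genes in the EVs low dose library, 0.165% in EVs high dose, 5.26% in NASH and 0.140% in control. Outside NASH nearly all of this was Spink1 and Ceacam10, described below, and most of the listed genes were at 0. Ratios also followed transcript length. Over 5 bins of about 1675 protein-coding genes, the median log2 ratio was 0.30 for the shortest transcripts and then 0.11, -0.01, -0.13 and -0.29 for the longest, against 0.12 to -0.05 for EVs high dose over NASH and 0.08 to -0.06 for EVs low dose over control. For NASH over control the medians ran the other way, from -0.21 for the shortest transcripts to 0.23 for the longest. Length was known for 99.7% of the protein-coding genes. The commonest ratio among genes below 0.3 FPKM put the depth of the EVs low dose library at about 1.30 times that of NASH, and those of EVs high dose and control at 1.09 times each. The 4 colon libraries held 13863 to 14480 genes at 1 FPKM or more.

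Accessory gland genes were the most distant of all the lists described here. Of 26 listed genes 23 were in the table, 20 reached 5 FPKM, and 19 of these 20 were 2-fold or more lower in the EVs low dose library, where 2.0% of all genes were. Svs4, which encodes a seminal vesicle secretory protein (gene ID 20941, chromosome 2, 164275956 to 164278307), was listed at 0 in EVs low dose, EVs high dose and control, and stood at 6903 FPKM in NASH. Svs5 was listed at 0 in the same 3 libraries and stood at 6210 FPKM in NASH, and Pbsn, the prostate secretory protein probasin, was listed at 0 against 863 FPKM in NASH. Tgm4, the transglutaminase of the prostate, was at 0.0522 FPKM in EVs low dose, 0.0612 in EVs high dose, 385 in NASH and 0.0445 in control. Ceacam10, which other tissues express too, was at 42.6, 37.9, 310 and 59.2 FPKM in the same order. The exception was Spink1, a trypsin inhibitor, at 594 FPKM in EVs low dose, 555 in EVs high dose, 387 in NASH and 456 in control. Summed over the list the level was 637 FPKM in EVs low dose, 593 in EVs high dose, 17982 in NASH and 515 in control, and 20, 18, 1 and 19 of the 23 genes were listed at 0. Outside NASH, Spink1 and Ceacam10 made up nearly all of the sum.

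**Figure D1:**
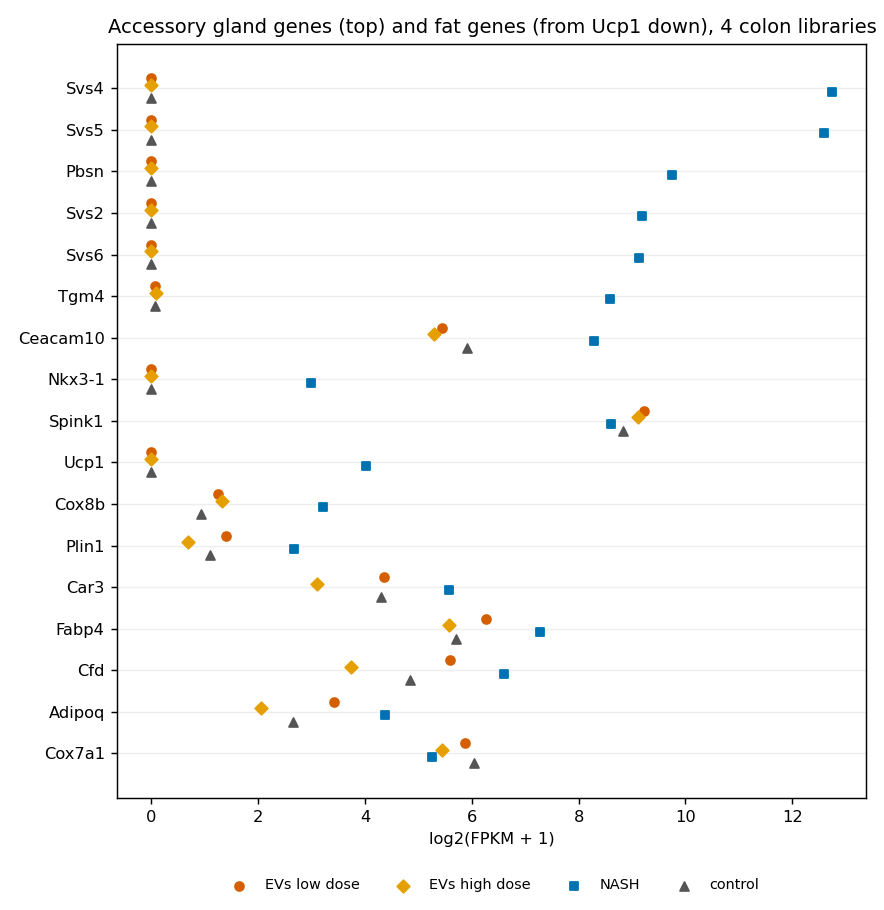
Level of 9 accessory gland genes (Svs4 to Spink1) and 8 fat genes (Ucp1 to Cox7a1) in each of the 4 colon libraries, as log2(FPKM + 1), 1 point per library. Most gland genes are listed at or near 0 outside the NASH library, and the fat genes lie closer together, with Spink1 and Cox7a1 higher in EVs low dose than in NASH.

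Fat genes lay the same way by much less. Of 29 listed genes 18 reached 5 FPKM, 17 had a log2 ratio below 0 and 7 were 2-fold or more lower. Adipoq, which encodes the fat cell hormone adiponectin, was at 9.63 FPKM in EVs low dose, 3.16 in EVs high dose, 19.8 in NASH and 5.31 in control, a log2 ratio of -0.97. Fabp4, the fatty acid carrier of fat cells, was at 75.7 FPKM in EVs low dose, 46.3 in EVs high dose, 155 in NASH and 50.9 in control. Ucp1, the uncoupling protein of brown fat, was listed at 0 in EVs low dose, EVs high dose and control and stood at 15.2 FPKM in NASH. Plin1, a lipid droplet coat protein, had a log2 ratio of -1.27, Car3, a carbonic anhydrase, -1.23 and Lpl, lipoprotein lipase, -1.22. The summed level of the fat list was 374 FPKM in EVs low dose, 242 in EVs high dose, 614 in NASH and 295 in control. EVs low dose was thus below NASH and above control, and the list's median less that of all genes changed sign between the 2 ratios, at -0.85 over NASH and 0.47 over control.

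Of the 9098 genes, 96 (1.06%) were 2-fold or more higher in the EVs low dose library, 182 (2.0%) were 2-fold or more lower and 8820 lay within 2-fold. At 1.5-fold the numbers were 449 higher (4.94%) and 696 lower (7.65%). The counts given for gene lists are to be read beside these shares. The median log2 ratio was -0.01. Protein-coding genes, leaving out mitochondrial and predicted ones and those without a symbol, numbered 8354, of which 34 were 2-fold higher and 126 lower. Immunoglobulin and T cell receptor segments and constant genes numbered 145 and held 53 of the 96 higher genes and 21 of the lower. Small RNAs had 2 higher and 16 lower of 160, pseudogenes 6 higher and 3 lower of 252, and long non-coding RNAs 0 higher and 1 lower of 82. In 33 of the 182 lower genes the NASH library held over 75% of the FPKM summed over the 4 colon libraries. Of the 96 higher genes, 5 had over 75% in the EVs low dose library, and all 5 are immunoglobulin variable segments. At the 5 FPKM limit, Wdr46 entered with 3.995 FPKM in EVs low dose and 5.0002 in NASH, and Zfp955a stayed out with 4.80 and 4.998.

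**Figure D2:**
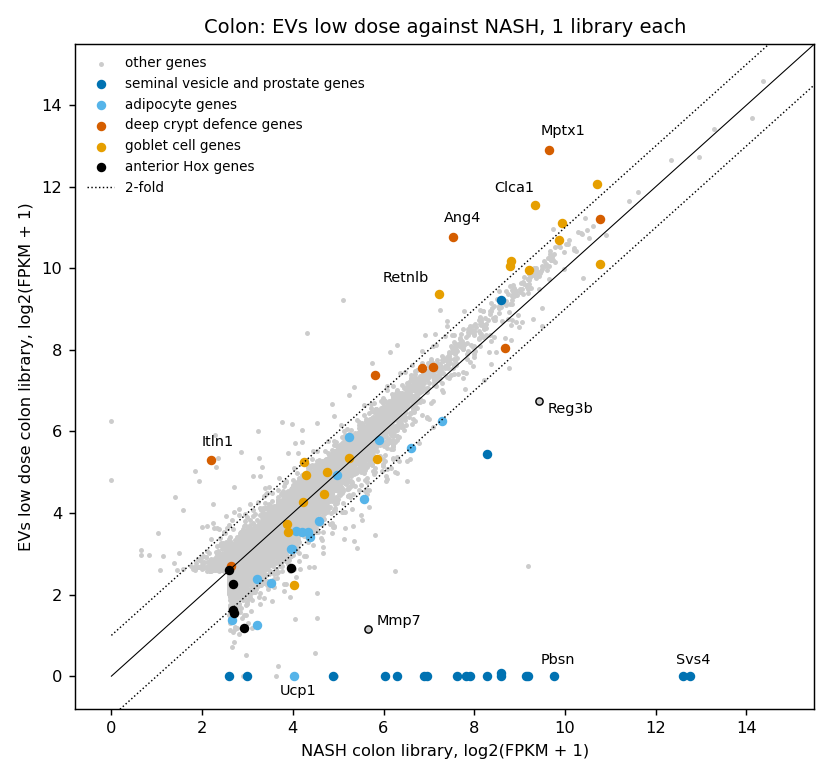
Level of each of the 9098 genes in the EVs low dose colon library (vertical axis) and in the NASH colon library (horizontal axis), as log2(FPKM + 1), with listed genes in colour and dotted lines at 2-fold. Mptx1, Ang4, Itln1, Clca1 and Retnlb lie above the upper line, and accessory gland genes lie along the bottom at or near 0 in EVs low dose, with Reg3b and Mmp7 outlined below the lower line.

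The 3 protein-coding genes with the largest log2 ratios all encode crypt defence proteins. Mptx1 (gene ID 66289, chromosome 1, 174330518 to 174332877) encodes a secreted pentraxin of the gut epithelium. It stood at 7702 FPKM in EVs low dose, 6769 in EVs high dose, 806 in NASH and 12617 in control, a log2 ratio of 3.25. Ang4, a bactericidal ribonuclease (gene ID 219033, chromosome 14, 51763892 to 51773590), was at 1753 FPKM in EVs low dose, 1154 in EVs high dose, 184 in NASH and 2004 in control, a log2 ratio of 3.25. Itln1, a lectin that binds microbial sugars, was at 38.5 FPKM in EVs low dose, 146 in EVs high dose, 3.55 in NASH and 72.5 in control, a log2 ratio of 3.12. For each of the 3, NASH was the lowest of the 4 libraries and the other 3 lay well above it. Reg4, a C-type lectin of deep crypt secretory cells, was at 166 FPKM in EVs low dose, 169 in EVs high dose, 54.8 in NASH and 494 in control, a log2 ratio of 1.58.

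The deep crypt list as a whole held 15 genes. Of these 9 reached 5 FPKM, 4 were 2-fold or more higher (Mptx1, Ang4, Itln1 and Reg4) and 0 lower, and its median log2 ratio lay 0.72 above that of all genes. That difference was 1.15 after median-of-ratios scaling and 1.08 with a limit of 10 FPKM. It was 0.63 with a limit of 1 FPKM and 0.53 with no limit. Sprr2a3, a small proline-rich protein, had a log2 ratio of 0.72, Wfdc2, a secreted protease inhibitor, 0.48, and Lypd8, a protein that holds flagellated bacteria off the epithelium, 0.43. Lyz1, a lysozyme of Paneth cells, lay at 0.07. Pigr, the receptor that carries dimeric IgA across the epithelium, lay the other way at 263 FPKM in EVs low dose, 368 in EVs high dose, 407 in NASH and 406 in control, a log2 ratio of -0.63. Mptx2 did not reach the limit, at 4.96 FPKM in EVs low dose, 138 in EVs high dose, 0.859 in NASH and 11.2 in control. The listed genes accounted for 3.23% of FPKM over protein-coding genes in EVs low dose, 3.07% in EVs high dose, 1.02% in NASH and 4.89% in control. Against the control library the list lay on the other side, with a median less that of all genes of -0.66 and log2 ratios of -0.71 for Mptx1 and -0.19 for Ang4.

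Goblet cell genes were split between secreted products, which were mostly higher in the EVs low dose library, and Muc2 and several regulators, which were not. Of 20 listed genes 19 reached 5 FPKM, 7 were 2-fold or more higher, 1 was lower, and the median log2 ratio lay 0.66 above that of all genes. Relative to genes of like length the median was 0.49. Clca1, a protease that cuts the mucus gel (gene ID 23844, chromosome 3, 145004537 to 145032776), was at 3022 FPKM in EVs low dose, 2807 in EVs high dose, 648 in NASH and 3915 in control, a log2 ratio of 2.22. Retnlb, the resistin-like molecule beta of goblet cells, was at 658 FPKM in EVs low dose, 371 in EVs high dose, 149 in NASH and 1386 in control, a log2 ratio of 2.13. Zg16, a lectin that binds Gram-positive bacteria, was at 4287 FPKM in EVs low dose, 3314 in EVs high dose, 1668 in NASH and 3236 in control, a log2 ratio of 1.36. In all 3 genes NASH was again the lowest library, and only for Zg16 among them was EVs low dose above control. Spink4, a protease inhibitor of goblet granules, had a log2 ratio of 1.38, Fcgbp, a large mucus protein, 1.27, Tff3, the goblet trefoil peptide, 1.16, and Tpsg1, a tryptase, 1.01.

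Muc2, the gel-forming mucin itself, lay the other way. It stood at 1097 FPKM in EVs low dose, 1854 in EVs high dose, 1760 in NASH and 1519 in control, a log2 ratio of -0.68, and EVs low dose was the lowest of the 4. Agr2, the disulphide isomerase that helps mucin fold, had a log2 ratio of 0.83 and Klk1, a kallikrein, 0.75. Among the transcription factors of the list, Atoh1 stood at 0.24, Foxa3 at 0.04 and Spdef at -0.55. Creb3l1, an endoplasmic reticulum membrane transcription factor of secretory cells, was at 3.71 FPKM in EVs low dose, 10.3 in EVs high dose, 15.3 in NASH and 5.21 in control, a log2 ratio of -1.79. NASH was the highest library for Spdef and Creb3l1, and the part of neighbouring tissue in their values was not tested. The list's share of protein-coding FPKM was 4.17% in EVs low dose, 4.10% in EVs high dose, 2.30% in NASH and 5.07% in control. Against control its median less that of all genes was -0.28, with Clca1 at -0.37 and Retnlb at -1.07. In bulk tissue, fewer goblet or crypt cells and less RNA per cell cannot be told apart.

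**Figure D3:**
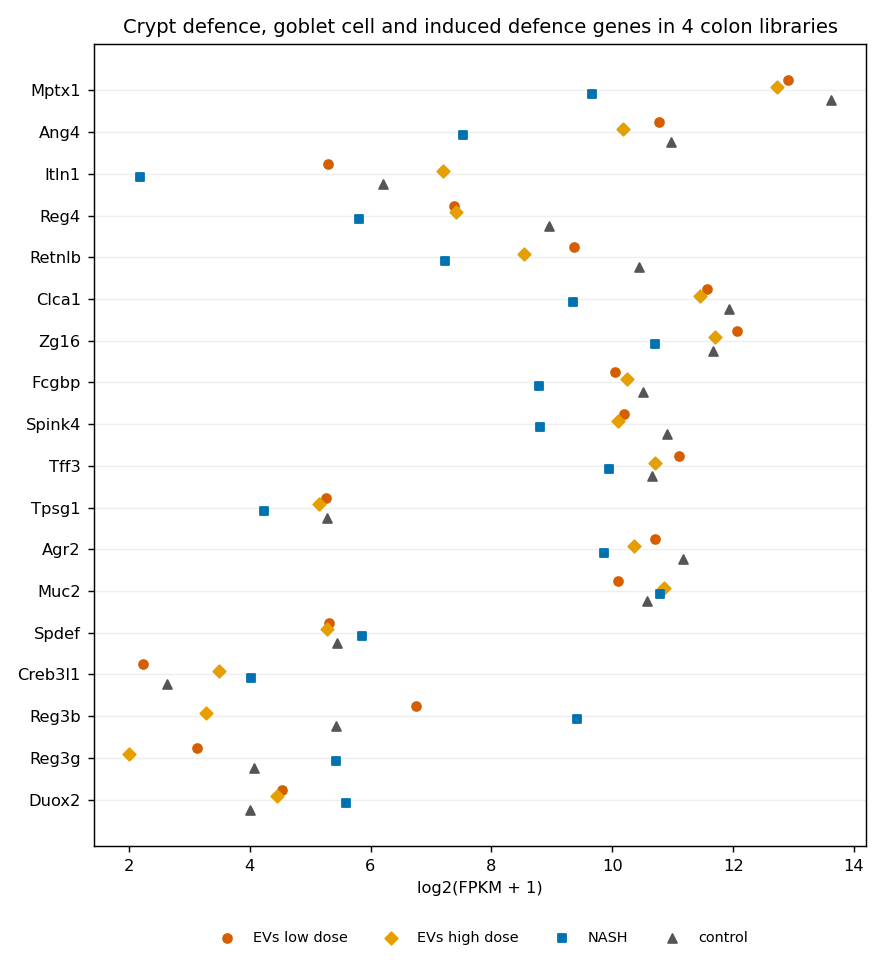
Level of 18 crypt defence, goblet cell and inducible defence genes in each of the 4 colon libraries, as log2(FPKM + 1), 1 point per library. From Mptx1 to Agr2 the NASH point is the lowest of the 4, and from Spdef to Duox2 it is the highest.

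Inducible epithelial defence genes, which the gut raises on contact with bacteria or during inflammation, did not share 1 direction. Of 21 listed genes 13 reached 5 FPKM, 1 was 2-fold or more higher and 4 were lower, and the median less that of all genes was -0.14. Reg3b, a C-type lectin that binds bacteria (gene ID 18489, chromosome 6, 78370885 to 78373466), was at 107 FPKM in EVs low dose, 8.70 in EVs high dose, 684 in NASH and 42.1 in control, a log2 ratio of -2.66. Reg3g, its bactericidal relative, was at 7.79 FPKM in EVs low dose, 2.996 in EVs high dose, 42.0 in NASH and 15.8 in control, a log2 ratio of -2.29. NASH was the highest of the 4 libraries for both lectins, and the EVs low dose library lay above control for Reg3b and below it for Reg3g. Duox2, the oxidase that makes hydrogen peroxide at the epithelial surface, was at 22.2 FPKM in EVs low dose, 20.8 in EVs high dose, 47.1 in NASH and 15.2 in control, a log2 ratio of -1.05. Saa3, an acute phase protein, had a log2 ratio of -1.07, and the far more abundant Saa1 stood at 1008 FPKM in EVs low dose and 1015 in NASH, a log2 ratio of -0.01. The gasdermin gene Gsdmc2 was at 273 FPKM in EVs low dose, 193 in EVs high dose, 135 in NASH and 495 in control, a log2 ratio of 1.01, with Gsdmc4 at 0.98 and the cytokine Il18 at 0.70.

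Plasma cell genes were higher in the EVs low dose library. Of 25 B and plasma cell genes 10 reached 5 FPKM, 5 were 2-fold or more higher and 0 lower, and the median lay 0.88 above that of all genes. Igha, the constant region of IgA (gene ID 238447, chromosome 12, 113256204 to 113260236), was at 1998 FPKM in EVs low dose, 1487 in EVs high dose, 851 in NASH and 1608 in control, a log2 ratio of 1.23. Jchain, which joins IgA into dimers, was at 418 FPKM in EVs low dose, 303 in EVs high dose, 168 in NASH and 315 in control, a log2 ratio of 1.31. Mzb1, a chaperone of antibody secretion, had a log2 ratio of 1.02. NASH was the lowest library for these 3 genes and EVs low dose the highest. Ighm, the constant region of IgM, had a log2 ratio of -0.62, and the kappa constant gene Igkc 0.73. The lambda constant gene Iglc1 was at 245 FPKM in EVs low dose, 294 in EVs high dose, 69.8 in NASH and 94.4 in control, a log2 ratio of 1.80, so here NASH and control lay together below both EV libraries. With genes of 1 FPKM or more let in, the list's median was 0.32 above that of all genes, and with no limit it was 0.11 above. Without immunoglobulin genes it was 0.40 above. Relative to genes of like length, among members with a known length, it was 0.27.

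Variable segments, the antigen-binding pieces of antibody genes, spread far more than other genes. Of 124 that reached 5 FPKM, 42 were 2-fold or more higher in the EVs low dose library, 20 were lower and 62 lay within 2-fold, with a median log2 ratio of 0.45. Ighv8-12 was at 592 FPKM in EVs low dose, 17.2 in EVs high dose, 33.4 in NASH and 7.07 in control, and held 26.0% of the summed heavy chain variable FPKM of the EVs low dose library. Igkv5-43 was at 340 FPKM in EVs low dose, 19.3 in EVs high dose, 18.8 in NASH and 15.1 in control, and held 23.9% of the kappa variable FPKM. In the NASH library the most abundant segments were Ighv1-18 with 6.91% of the heavy and Igkv10-96 with 6.83% of the kappa variable FPKM. Igkv5-45 was at 75.04 FPKM in EVs low dose and listed at 0 in NASH, with 6.03 in EVs high dose and 4.76 in control. Iglv1, the main lambda segment, was at 279 FPKM in EVs low dose, 284 in EVs high dose, 77.5 in NASH and 97.9 in control. Such segments are near-identical in places, so how reads divide among them is uncertain, and those named in this paragraph were chosen after their values were seen.

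**Figure D4:**
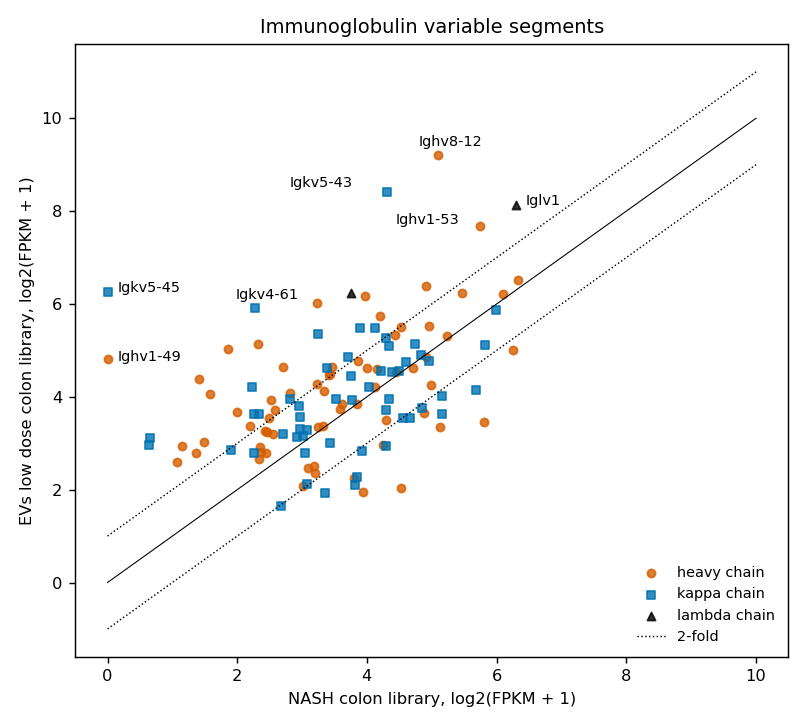
Level of the 124 immunoglobulin variable segments in the EVs low dose colon library (vertical axis) and in the NASH colon library (horizontal axis), as log2(FPKM + 1), by chain, with dotted lines at 2-fold. Ighv8-12 and Igkv5-43 stand far above the line of equal levels, and 62 segments lie between the dotted lines.

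Macrophage and antigen presentation genes lay above 0 as groups without passing 2-fold. All 12 macrophage genes that reached 5 FPKM, of 24 listed, had log2 ratios above 0, from 0.29 to 0.90, with 6 past 1.5-fold. Over all genes 4.94% were 1.5-fold or more higher. Fcer1g and Adgre1, among others, reached the limit in EVs low dose and not in NASH, which favours ratios above 0. Tyrobp, a signalling adaptor of myeloid cells, was at 25.5 FPKM in EVs low dose, 18.7 in EVs high dose, 13.2 in NASH and 16.9 in control, a log2 ratio of 0.90, and the complement gene C1qa had 0.81. The 5 MHC class II genes that reached the limit, of 10 listed, ran from 0.51 to 0.84, with the invariant chain Cd74 at 156 FPKM in EVs low dose, 128 in EVs high dose, 95.9 in NASH and 129 in control. Medians less that of all genes were 0.59 for macrophages and 0.70 for MHC class II, and with a limit of 1 FPKM they were 0.53 and 0.56. Both lists hold short transcripts, with a median length of 1478.5 bases for macrophage genes, and relative to genes of like length their medians were 0.49 and 0.40. Of T and natural killer cell genes 1 of 28 reached 5 FPKM (Trbc2, log2 ratio 0.26), of neutrophil genes 1 of 13 (Ly6g, -0.32) and of mast cell and eosinophil genes 1 of 14 (Kit, -0.39). Ly6c2, a surface protein of monocytes and other leukocytes, was among the 15 largest ratios, at 28.8 FPKM in EVs low dose, 14.9 in EVs high dose, 8.66 in NASH and 13.6 in control, a log2 ratio of 1.62.

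Of 34 absorptive colonocyte genes 32 reached 5 FPKM in at least 1 of the 2 libraries, and 30 of the 32 lay within 2-fold. Summed over the list the level was 8011 FPKM in EVs low dose and 6333 in NASH. Aqp8, a water channel of surface colonocytes, was at 333 FPKM in EVs low dose, 196 in EVs high dose, 140 in NASH and 243 in control, a log2 ratio of 1.25. Ceacam1, an adhesion molecule, was at 187 FPKM in EVs low dose, 293 in EVs high dose, 433 in NASH and 198 in control, a log2 ratio of -1.20. Slc20a1, a phosphate transporter, stood at 0.91 and Guca2a, the hormone guanylin, at 0.79. Junction genes differed little: all 21 that reached the limit lay between -0.44 (Cdh1, the adherens junction cadherin) and 0.44 (Cdh17, a cadherin of the gut epithelium), with a median less that of all genes of 0.00. The hindgut homeobox gene Hoxb13 stood at 140 FPKM in EVs low dose, 131 in EVs high dose, 114 in NASH and 134 in control.

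Crypt stem cell and Wnt target genes had a median less that of all genes of -0.37, with 1 of 13 past 2-fold. That gene was Sox9, a transcription factor of crypt progenitors, at 3.11 FPKM in EVs low dose, 5.54 in EVs high dose, 7.44 in NASH and 3.46 in control, a log2 ratio of -1.04. Cd44, a hyaluronan receptor of crypt cells, stood at -0.96 and Myc, a growth-promoting transcription factor, at -0.95. This list holds long transcripts, with a median of 4260 bases, and relative to genes of like length its median was -0.19 and Sox9 stood at -0.91. With a limit of 10 FPKM the list's median less that of all genes was -0.09. Sox9 and Myc reached 5 FPKM in NASH and not in EVs low dose, so the limit itself favoured low ratios here. All 17 cell cycle genes lay within 2-fold, from -0.68 for the proliferation marker Mki67 to 0.51 for the replication helicase subunit Mcm5. Enteroendocrine genes had 14 members within 2-fold, led by the peptide hormones Insl5 at 0.86 and Pyy at 0.60, and tuft cell genes had 6, with a median 0.38 above that of all genes that came to 0.11 when the libraries were scaled to the same sum. Ppy, which encodes pancreatic polypeptide, a hormone of endocrine cells, was among the 15 largest ratios, at 11.9 FPKM in EVs low dose, 8.20 in EVs high dose, 3.31 in NASH and 9.36 in control, a log2 ratio of 1.58.

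Metabolic genes differed in single members more than as groups. Of 33 xenobiotic metabolism genes 2 were 2-fold or more higher and 0 lower, and their median lay 0.34 above that of all genes. Relative to genes of like length the list's median was 0.17. Ces2a, a carboxylesterase, was at 117 FPKM in EVs low dose, 63.3 in EVs high dose, 36.9 in NASH and 93.7 in control, a log2 ratio of 1.64. Cyp2c55, a cytochrome P450 of colon, was at 328 FPKM in EVs low dose, 161 in EVs high dose, 120 in NASH and 579 in control, a log2 ratio of 1.44. Of 24 fatty acid oxidation and PPARA target genes 1 was higher, the fatty acid carrier Fabp2, at 496 FPKM in EVs low dose, 297 in EVs high dose, 216 in NASH and 253 in control, a log2 ratio of 1.19. Of 15 lipogenesis genes 1 was lower, the desaturase Scd1, at 30.5 FPKM in EVs low dose, 16.8 in EVs high dose, 77.2 in NASH and 16.7 in control, a log2 ratio of -1.31. Scd1 is also abundant in fat, and the fat genes above lay the same way. The part of fat in its value was not tested.

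All 23 cholesterol synthesis genes lay within 2-fold, 19 of them above 0, with Fdps, an isoprenoid synthase, at 0.85 and Srebf2, the transcription factor that drives the pathway, at -0.82. All 9 bile acid genes lay within 2-fold, with the vitamin D receptor Vdr, which also senses bile acids, at -0.80. Slc51a, a subunit of the bile acid exporter, was at 23.8 FPKM in EVs low dose, 7.88 in EVs high dose, 36.9 in NASH and 2.11 in control, a log2 ratio of -0.62 over NASH and 2.99 over control. Both EVs low dose and NASH thus lay far above control for this gene. NRF2 and antioxidant genes (16), hypoxia and glycolysis genes (16) and unfolded protein response genes (15) all lay within 2-fold, with medians less that of all genes of 0.08, 0.07 and 0.24.

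Ribosomal protein genes lay close together. All 35 lay above 0 and within 2-fold, from 0.22 to 0.69 for Rpl30, which was at 875 FPKM in EVs low dose, 612 in EVs high dose, 543 in NASH and 675 in control. Their median lay 0.51 above that of all genes, and their transcripts are short, with a median of 1094 bases. Relative to genes of like length the median was 0.21. Nuclear genes of oxidative phosphorylation lay within 2-fold in 28 of 28, 27 of them above 0, with a median of 0.47 that came to 0.23 relative to genes of like length. Of 13 transcripts of mitochondrial DNA 3 were 2-fold or more lower and 0 higher. These encode subunits of respiratory complex I: ND4 was at 26.8 FPKM in EVs low dose, 35.9 in EVs high dose, 90.2 in NASH and 40.6 in control, a log2 ratio of -1.72, ND2 stood at -1.64 and ND5 at -1.23. COX3 and COX1, the cytochrome oxidase subunits and the 2 most abundant of the list, stood at 0.30 and 0.13. Neighbouring mitochondrial genes share long precursor RNAs and partly overlap, so how reads divide among them is uncertain.

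Genes of the supporting tissue mostly lay a little lower in the EVs low dose library. Of 27 fibroblast and matrix genes 23 had log2 ratios below 0, 1 was 2-fold or more lower and 0 higher, and the median less that of all genes was -0.29. Their transcripts are long, with a median of 5223 bases, and relative to genes of like length the median was -0.07. Mmp7, the protease matrilysin (gene ID 17393, chromosome 9, 7692090 to 7699585), was at 1.22 FPKM in EVs low dose, 0.549 in EVs high dose, 49.3 in NASH and 0.291 in control, a log2 ratio of -4.50. It is made by gland epithelia, the prostate among them, and its level follows the accessory gland genes in being high in NASH alone. Its source was not tested. Bgn, a small proteoglycan, stood at -0.95, and Col1a1, a chain of type I collagen, was at 3.16 FPKM in EVs low dose, 7.81 in EVs high dose, 6.16 in NASH and 9.63 in control, a log2 ratio of -0.78. All 21 smooth muscle genes lay within 2-fold, with Pcp4, a calmodulin-binding peptide, lowest at -0.83. Enteric nerve and glia genes (5) and endothelial genes (7) lay within 2-fold too.

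Anterior Hox genes, which mark position along the body axis, were lower among those that reached the limit. Of 21 listed 6 reached 5 FPKM and 4 of these were 2-fold or more lower, with a median less that of all genes of -1.10, which was -0.57 with a pseudocount of 5 FPKM. Hoxb3, Hoxb5 and Hoxa3 reached 5 FPKM in NASH and not in EVs low dose, so the limit itself favoured low ratios here. Hoxb6 was at 5.27 FPKM in EVs low dose, 4.24 in EVs high dose, 14.5 in NASH and 2.79 in control, a log2 ratio of -1.31. Hoxb3 was at 1.27 FPKM in EVs low dose, 2.11 in EVs high dose, 6.64 in NASH and 0.893 in control, a log2 ratio of -1.75. Hoxb5 stood at -1.15 and Hoxa3 at -1.06, and Hoxa3 differs from the others in that EVs high dose was its highest library, at 6.34 FPKM. The summed level of the anterior list was 37.1 FPKM in EVs low dose, 41.4 in EVs high dose, 71.1 in NASH and 30.1 in control. Over control, the same 6 anterior genes had a median log2 ratio of 0.37 in EVs low dose, with 0.26 for Hoxb3, 0.48 for Hoxb5 and 0.73 for Hoxb6. All 6 posterior Hox genes lay within 2-fold. The summed levels of the anterior list and of the accessory gland list were both highest in the NASH library, and their link was not tested.

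Among the 15 smallest ratios outside the gland, fat and pancreas lists, most belonged to genes present in the NASH library and near 0 elsewhere. Tcaf3, a regulator of the cold-sensing channel Trpm8, was listed at 0 in EVs low dose, EVs high dose and control and stood at 118 FPKM in NASH, and Pate9, Atp6v1c2, Spink8, Glb1l3 and Wfdc15b were likewise listed at 0 in those 3 libraries, with 29.8, 11.4, 6.79, 5.27 and 5.12 FPKM in NASH. The gene 9530053A07Rik was at 5.49 FPKM in EVs low dose, 6.63 in EVs high dose, 580 in NASH and 7.89 in control, a log2 ratio of -6.48. Fgl1, a secreted fibrinogen-like protein, stood at -3.91, C1rb, a complement protease, at -3.11, Azgp1, a secreted zinc-binding glycoprotein, at -2.66, and Ms4a5 at -2.45. Defb1, a beta-defensin, was listed at 0 in EVs low dose against 6.42 FPKM in NASH. Reg3b and Reg3g, which are present in all 4 libraries, complete the 15 with Mmp7. Pate9 is described as prostate and testis expressed. The genes listed at 0 in every library but NASH, and 9530053A07Rik, share with accessory gland genes a level high in NASH alone. So do Fgl1, C1rb, Azgp1, Ms4a5 and Defb1. NASH held from 75.9% (Azgp1) to 97.2% (Defb1) of their FPKM summed over the 4 colon libraries. All of these genes are flagged as possible neighbouring tissue too, and their source was not tested.

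With genes set aside that have over 75% of their 4-library sum in 1 library, a step chosen after the values were seen, the lowest ratios belonged to Reg3g, Muc3a and Egf. Muc3a, a membrane-bound mucin, was at 8.89 FPKM in EVs low dose, 24.4 in EVs high dose, 39.8 in NASH and 8.81 in control, a log2 ratio of -2.05. Egf, epidermal growth factor, stood at -1.92, Fabp3, a fatty acid carrier of muscle and brown fat, at -1.91, and the transcription factors Osr2 and Tbx3 at -1.70 and -1.58. Eif4ebp2, a repressor of translation initiation, was at 7.11 FPKM in EVs low dose, 16.9 in EVs high dose, 24.2 in NASH and 9.83 in control, a log2 ratio of -1.64. Several genes of chromatin regulators with long transcripts were also 2-fold or more lower, and were picked out after their values were seen. Kmt2d, a histone methyltransferase, was at 3.39 FPKM in EVs low dose, 6.87 in EVs high dose, 9.93 in NASH and 4.33 in control, a log2 ratio of -1.32. Arid1a, a chromatin remodelling subunit, stood at -1.07 and Tet3, a DNA demethylase, at -1.07. Their longest transcripts run from 8187 bases for Arid1a to 19823 for Kmt2d, and genes of the longest bin had a median of -0.29.

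Pancreatic enzyme genes mostly lay higher in the EVs low dose library among the few that reached the limit. Of 26 listed 5 reached 5 FPKM, 4 with log2 ratios above 0 and 1, Rnase1, below. Summed over the list the level was 761 FPKM in EVs low dose, 5302 in EVs high dose, 468 in NASH and 1860 in control. Sycn, which encodes syncollin, was at 609 FPKM in EVs low dose, 634 in EVs high dose, 359 in NASH and 1485 in control, a log2 ratio of 0.76. Pnliprp2, a pancreatic lipase, was at 10.4 FPKM in EVs low dose, 34.8 in EVs high dose, 1.03 in NASH and 62.2 in control, a log2 ratio of 2.49. Clps, the colipase, was at 34.0 FPKM in EVs low dose, 124 in EVs high dose, 8.93 in NASH and 72.3 in control, a log2 ratio of 1.82. Rnase1, a secreted ribonuclease that other tissues make too, was at 0.194 FPKM in EVs low dose, 42.9 in EVs high dose, 11.8 in NASH and 1.26 in control. For Pnliprp2, Clps and Sycn the EVs low dose library thus lay above NASH and below EVs high dose and control, as it did for Itln1 and Mptx2. The 17 squamous epithelium genes stayed below 5 FPKM in both libraries.

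Signalling and stress lists lay near all genes. Interferon response genes had 17 members within 2-fold and a median 0.26 above that of all genes, heat shock genes 13 within 2-fold and a value of 0.20, and cytokine, chemokine and endotoxin sensing genes 14 within 2-fold and a value of -0.03. Fos, an immediate early transcription factor, was at 101 FPKM in EVs low dose, 57.0 in EVs high dose, 52.0 in NASH and 57.7 in control, a log2 ratio of 0.95. Circadian clock genes had 13 members within 2-fold of NASH and a median less that of all genes of -0.13, while over control their median lay 1.26 above that of all genes. Nr1d1, a repressor of the clock, was at 7.88 FPKM in EVs low dose, 11.96 in EVs high dose, 15.4 in NASH and 3.04 in control, so control was the lowest library. Glucocorticoid receptor targets had medians less that of all genes of -0.25 over NASH and 0.57 over control.

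**Figure D5:**
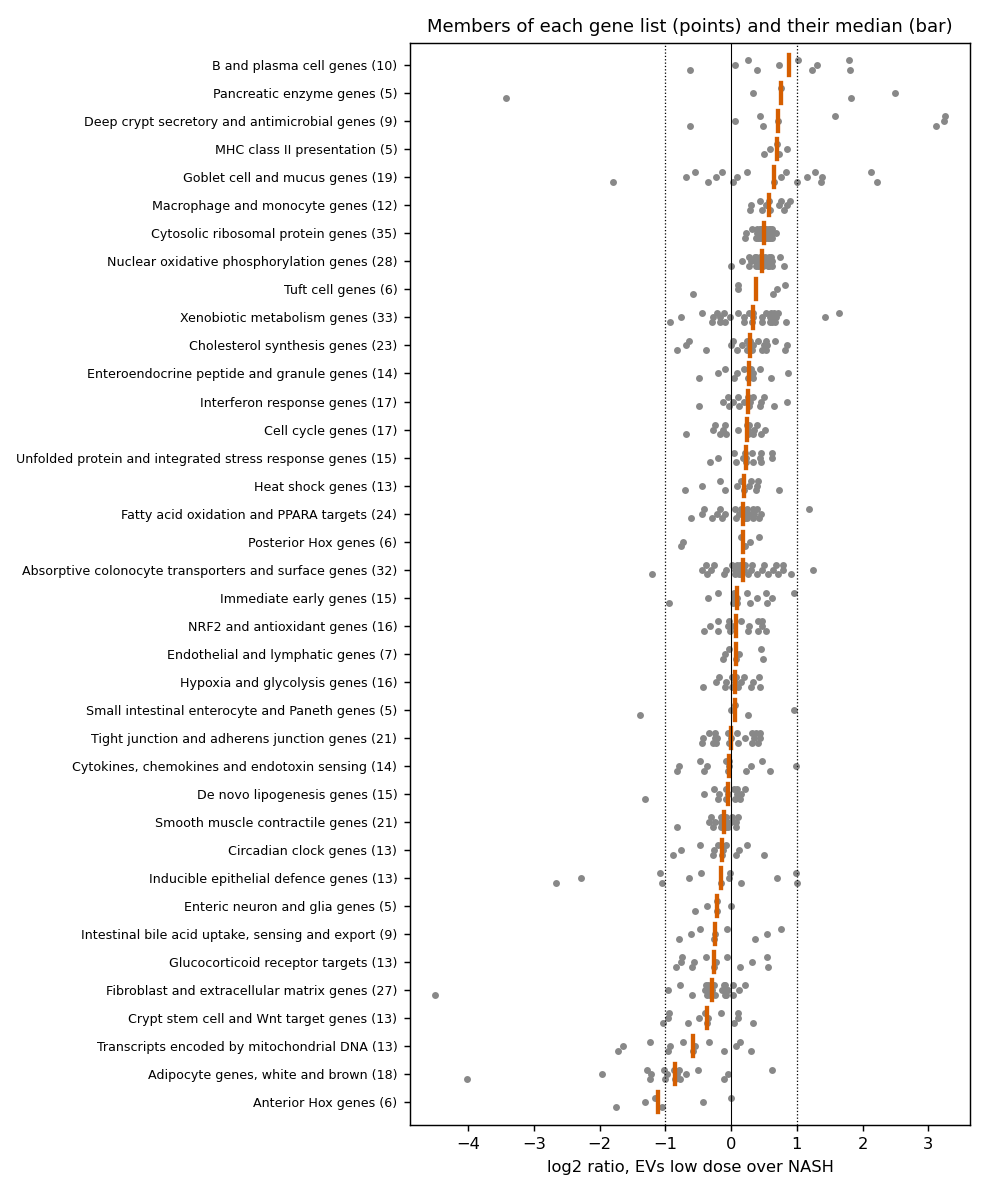
Log2 ratio of EVs low dose over NASH for the members of each gene list with 5 or more members at 5 FPKM, 1 grey point per gene, with the list median as an orange bar, the number of members in brackets and dotted lines at 2-fold. The accessory gland list is left out because its values run off this scale. Medians run from 0.87 for B and plasma cell genes to -1.11 for anterior Hox genes, and the crypt defence and goblet lists hold the points past 2 among lists of epithelial genes.

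The same ratio can be set beside that in liver. Of 6307 genes at 5 FPKM or more in both tissues, 76 (1.21%) were 2-fold or more apart between EVs low dose and NASH in colon and 16 (0.254%) in liver. In both tissues 6 were 2-fold or more apart, and 5 of the 6 lay the same way. They were Enpep, a membrane aminopeptidase, at -1.39 in colon and -1.18 in liver, and 4 pseudogenes. Of these Gm13394 stood at -1.35 in colon and -2.01 in liver, Rps7-ps3 at 2.64 and 2.23, Gm13841 at 3.003 and 2.16, and Gm8210 at 2.86 and 2.10. The sixth, the histone gene H2bc6, lay higher in colon and lower in liver. It stood at 72.3 FPKM in EVs low dose, 27.9 in EVs high dose, 22.2 in NASH and 44.0 in control in colon, a log2 ratio of 1.66, and at 5.63 FPKM in EVs low dose against 28.2 in NASH in liver, a log2 ratio of -2.14. The crypt genes Mptx1 and Ang4 were listed at 0 in both liver libraries. Pseudogenes can be near-identical to the genes they copy, so their values are uncertain.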

How the data were processed

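RNA of 4 colon and 4 liver tissue samples was measured, 1 library per tissue and group, and groups were taken from the sample titles. The authors deposited FPKM in 1 table for all libraries. Per the labels' protocols, TRIzol and an RNeasy Plus kit served for RNA extraction and a TruSeq Stranded Total RNA Gold kit for the libraries. Per the submitters' processing notes, Trimmomatic 0.38, HISAT2, StringTie and mm10 were used. Not given in the sources used here are their roles, their order and the versions of HISAT2 and StringTie. Symbols were found for 45679 of 45777 gene IDs in RefSeq for GRCm38.p6, and lengths are those of the longest GENCODE M21 transcript.

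The log2 ratio of FPKM + 1 was computed for genes with 5 FPKM or more in the EVs low dose or the NASH colon library. Adding 1 FPKM makes the ratios of genes with low levels smaller than they are. With 1 library per group no test was run, and a gene was counted as apart at 2-fold, or at 1.5-fold where stated. Read counts and read depth are not in the table, so no counting interval can be given, and the relative depth is an estimate from the commonest ratio of low values (30 of 4523 genes).

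The genes named are those with the 15 largest and the 15 smallest ratios, leaving out predicted genes, receptor segments, small RNAs, pseudogenes and mitochondrial genes, with fat, accessory gland and pancreas genes kept apart. Up to 4 members with the largest ratios in size were also named for each of 46 gene lists. Other genes are named as list members, as genes the text says were chosen after their values were seen, or, for Hoxb13, Saa1, COX1 and Mptx2, as points of comparison chosen in the same way. The members, lists and alternatives were chosen with earlier results of these data known. A list is described by its counts and by its median less that of all genes.

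Alternatives were a pseudocount of 0.1 or 5 FPKM, a filter of 1 or 10 FPKM or none, median-of-ratios scaling, scaling to the same sum, protein-coding genes only, leaving out the fat, gland and pancreas lists, leaving out genes with over 75% of the colon FPKM in 1 library, and EVs low dose over control. Ratios relative to genes of like transcript length, and leaving out immunoglobulin genes, were added after the data were seen. Scripts were first tested on simulated data of known answers. Tools were Python 3.11.15, numpy 2.4.6, pandas 2.3.3 and matplotlib 3.10.9.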

Additional observations from a re-analysis of the deposited data

Results flagged for a closer look

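The histone gene H2bc6 lay on opposite sides in the 2 tissues. In colon it was higher in the EVs low dose library than in the NASH library, with a log2 ratio of 1.66, and in liver it was lower, with a log2 ratio of -2.14. With 1 library per group the difference between tissues was not tested.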

How the results depend on the processing

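No paired analysis was possible because each group has 1 library, and no library could be left out for the same reason. Of the genes past 2-fold, 34.5% were higher as deposited, 49.4% after median-of-ratios scaling (127 higher and 130 lower) and 21.2% after scaling to the same sum (74 higher and 275 lower). These scalings put the median log2 ratio at 0.12 and -0.16, against -0.01. A pseudocount of 5 FPKM gave 63 higher and 80 lower, a filter of 1 FPKM or none gave 297 lower and a filter of 10 FPKM gave 114 lower. All 8401 protein-coding genes, now with mitochondrial and predicted ones and those without a symbol, had 35 higher and 135 lower. Without immunoglobulin genes 43 were higher. Relative to genes of like transcript length 21 were higher, among the genes with a known length, which leaves out most variable segments. Without the fat, gland and pancreas lists 94 were higher and 155 lower.

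Of 40 lists and 191 named genes, 6 lists with a median over 0.25 in size and 18 genes past 2-fold changed sign under some alternative, and apart from the interferon list (-0.0099 with no filter) all did so with EVs low dose over control. That ratio was computed for the 38 lists and 152 named genes that reach 5 FPKM in EVs low dose or control. Below that limit, 10 more named genes past 2-fold had the other sign over control, with log2 ratios of 0.26 for Hoxb3, 0.30 for Plin1, 0.32 for Cox8b, 0.41 for Gsdma and Grin3a, 0.48 for Hoxb5, 0.71 for Fabp3, 0.73 for Osr2, 0.78 for Mmp7 and 1.03 for Saa3. The ratio gave list medians less that of all genes of -0.28 for goblet, -0.66 for crypt defence, -0.18 for cholesterol, 0.47 for fat and -2.81 for pancreas. Its log2 ratios were -0.71 for Mptx1, -0.19 for Ang4, -0.90 for Itln1, -0.37 for Clca1, -1.07 for Retnlb, -1.57 for Reg4, -0.82 for Cyp2c55, -0.72 for Spink4, -0.46 for Fcgbp, -2.47 for Pnliprp2 and -1.07 for Clps. They were 1.33 for Reg3b, 0.012 for Muc3a, 0.53 for Duox2, 0.83 for Scd1, 0.73 for Hoxb6, 0.41 for Enpep and 0.052 for Car3. The cause was not tested.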

Other observations

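Antibody genes other than those of IgA also differed between the 2 colon libraries. Ighg1, the constant region of IgG1, was at 12.4 FPKM in EVs low dose, 5.33 in EVs high dose, 3.70 in NASH and 9.71 in control, a log2 ratio of 1.52. Ighg2c, a constant region of IgG2, stayed below 5 FPKM and was at 0.957 FPKM in EVs low dose, 0.539 in EVs high dose, 4.01 in NASH and 1.02 in control. The kappa joining segment Igkj5 was at 4.95 FPKM in EVs low dose, 6.0035 in EVs high dose, 74.8 in NASH and 171 in control, so both EV libraries lay far below NASH and control. The kappa joining segment Igkj4 lay the other way, at 70.9 FPKM in EVs low dose, 91.7 in EVs high dose, 32.2 in NASH and 5.25 in control. How reads divide among joining segments is uncertain. These genes were picked out after their values were seen.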
